A study of Mus musculus with 16 samples.

Results

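The genes described here are the ligands, receptors and SMAD proteins of the TGF-beta and BMP pathway, read in peak lists of RNA polymerase II (Pol II) and of monoubiquitylated histone H2B (H2Bub1). They were chosen by symbol: autosomal protein-coding genes of the GENCODE M21 annotation whose names begin with Tgfb or Bmp and a digit or r, with Gdf or Smad and a digit, or with Inhb or Acvr. This rule found 51 genes among 20807 autosomal protein-coding genes. They were 26 ligands, 13 receptors, 8 SMADs and 4 genes of other kinds that matched by symbol. These 4, labelled as shared symbol only in the figures, were Bmp1 (a procollagen protease), Bmp2k (a kinase), Tgfb1i1 (the focal adhesion protein Hic-5) and Tgfbrap1 (a vesicle tethering factor). Wild-type (WT, Atxn7l3+/+) and Atxn7l3-/- cells were compared in embryonic stem cells (mESCs) and in embryonic fibroblasts (MEFs) of the mouse, all of strain DBA/2 x C57BL/6 and without further treatment. ATXN7L3 is the adaptor protein that the deubiquitylases acting on H2Bub1 need for their activity, so the comparison asks how Pol II and H2Bub1 at these genes differ where that activity is missing. The mESCs were derived from blastocysts and grown with leukaemia inhibitory factor and a pair of kinase inhibitors, and the MEFs came from E10.5 embryos without head and gut, both from crosses of heterozygous mice that carry the null allele in every cell. Each of the 8 peak lists stems from 1 library (Pol II and H2Bub1, WT and Atxn7l3-/-, mESCs and MEFs), so no difference below has a replicate check and none carries a p-value.

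In this pathway a secreted dimeric ligand binds type II receptors, which phosphorylate type I receptors, which phosphorylate receptor SMADs that enter the nucleus with SMAD4. TGF-beta and activin type ligands act mainly through SMAD2 and SMAD3, BMP type ligands mainly through SMAD1, SMAD5 and SMAD9, and SMAD6 and SMAD7 inhibit the pathway. Fibroblasts are known for matrix production in response to TGF-beta, and BMP4 and Nodal-type ligands are known for their part in keeping or leaving the pluripotent state.

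The promoter sequences of Inhba, Bmp4, Tgfb1, Smad6 and Smad5 are shown because the Pol II call at these genes differed between WT and Atxn7l3-/- cells and because they differ in base composition and motifs. Each runs from 250 bases before to 50 bases after the RefSeq start (build GRCm38.p6), which for these 5 genes is also the GENCODE start. Capitals mark 4 motifs searched on both strands: the SMAD palindrome GTCTAGAC, the BMP-SMAD GC element GGCGCC, the AP-1 site TGANTCA and the TATA box TATAAA, none of which overlapped another in these promoters. Inhba lies on the + strand at chr13:16011601-16011900, Bmp4 on the − strand at chr14:46390620-46390919, Tgfb1 on the + strand at chr7:25686752-25687051, Smad6 on the − strand at chr9:64022010-64022309 and Smad5 on the + strand at chr13:56702760-56703059.
Inhba: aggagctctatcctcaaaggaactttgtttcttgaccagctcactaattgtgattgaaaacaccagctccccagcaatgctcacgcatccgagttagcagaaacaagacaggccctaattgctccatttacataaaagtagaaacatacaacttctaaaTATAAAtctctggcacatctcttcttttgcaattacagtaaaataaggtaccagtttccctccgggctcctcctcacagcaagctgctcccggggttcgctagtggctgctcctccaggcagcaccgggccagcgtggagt
Bmp4: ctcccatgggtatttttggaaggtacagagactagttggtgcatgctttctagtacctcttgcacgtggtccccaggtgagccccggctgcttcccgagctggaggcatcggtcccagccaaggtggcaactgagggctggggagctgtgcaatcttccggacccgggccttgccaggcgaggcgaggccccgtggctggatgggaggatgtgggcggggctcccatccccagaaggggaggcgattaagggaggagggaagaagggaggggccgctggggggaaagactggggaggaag
Tgfb1: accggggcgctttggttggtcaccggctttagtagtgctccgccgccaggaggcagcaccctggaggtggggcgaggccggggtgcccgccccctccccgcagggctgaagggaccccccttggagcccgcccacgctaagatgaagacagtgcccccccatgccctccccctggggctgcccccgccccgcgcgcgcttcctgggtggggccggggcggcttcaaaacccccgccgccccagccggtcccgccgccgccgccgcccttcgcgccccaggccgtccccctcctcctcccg
Smad6: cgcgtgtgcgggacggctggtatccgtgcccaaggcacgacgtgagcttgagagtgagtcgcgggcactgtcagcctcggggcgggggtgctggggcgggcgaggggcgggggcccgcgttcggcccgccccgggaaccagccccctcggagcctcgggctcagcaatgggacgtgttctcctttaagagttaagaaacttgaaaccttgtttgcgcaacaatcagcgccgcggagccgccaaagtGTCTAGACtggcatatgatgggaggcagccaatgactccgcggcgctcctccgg
Smad5: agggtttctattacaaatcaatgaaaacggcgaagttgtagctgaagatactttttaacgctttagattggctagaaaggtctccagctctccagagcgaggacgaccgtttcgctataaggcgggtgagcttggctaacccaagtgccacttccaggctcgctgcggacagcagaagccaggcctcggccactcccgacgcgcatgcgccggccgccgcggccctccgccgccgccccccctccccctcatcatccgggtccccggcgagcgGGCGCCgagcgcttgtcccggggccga
The Inhba promoter held 7 CpG dinucleotides at a GC content of 47.7%, and a TATA box began 91 bases before the start. The Bmp4 promoter held 12 CpG at 64.0% GC and the Tgfb1 promoter 30 CpG at 77.0% GC, and neither held any of the 4 motifs in this window. The Smad6 promoter, with 31 CpG, held the SMAD palindrome from 4 bases before the start, and the Smad5 promoter, also with 31 CpG, held the BMP-SMAD GC element 23 bases after it. RefSeq promoters were at hand for 36 of the 51 members and for 15703 of all genes. The median GC content was 65.2% over these members and 57.3% over all genes, with medians of 25.5 and 15 CpG. The SMAD palindrome stood in 1 of 36 member promoters (Smad6) and in 0.217% of all promoters. The BMP-SMAD GC element stood in 8 of 36 against 16.4% of all promoters, the TATA box in 5 of 36 against 12.9%, and the AP-1 site in 0 of 36 against 7.02%. Some of the 36 lie far from the GENCODE start used for the Pol II calls, that of Bmpr1b by 187161 bp. Among the 31 within 500 bp of it, the counts were 6 (17.3% of all such promoters) for the GC element and 4 (11.3%) for the TATA box. They were 0 (6.63%) for the AP-1 site and 1 (0.221%) for the SMAD palindrome. A motif match describes the letters of this window and is no evidence of binding.

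A promoter was taken as occupied where a Pol II peak overlapped the 1000 bp on either side of the start of the gene record, and its level is the highest fold of such a peak over the background of its own library. Where a gene is said to have a Pol II peak or none without further mention, this promoter peak is meant, and peaks may still lie further inside the gene. Folds of different libraries are therefore not on an absolute scale, and the read depth behind them is unknown. The Atxn7l3-/- Pol II lists held fewer peaks than the WT lists (11963 against 17074 in mESCs, 32232 against 45870 in MEFs), whereas the H2Bub1 lists covered 151 against 71.6 Mb in mESCs and 223 against 48.1 Mb in MEFs. The targeted gene was looked at first. The promoter of Atxn7l3 lies outside the exons placed between the loxP sites (2 to 12), so its Pol II fold (3.61 in WT and 3.71 in Atxn7l3-/- mESCs, 20.9 and 23.4 in MEFs) is no check of the deletion. H2Bub1 peaks covered 100% of the span of those exons in WT and 13.0% in Atxn7l3-/- mESCs, as the labels have it, whereas the shares in MEFs (21.6% and 19.6%) were low in both libraries and do not test the label. Pol II peaks covered 20.7% and 11.9% of the span in WT and Atxn7l3-/- mESCs and 19.3% and 10.9% in MEFs. Peaks thus reached into it in the Atxn7l3-/- libraries of both cell types, at its edge or further in, which this share does not tell. The paper reports that no ATXN7L3 protein was detectable in the Atxn7l3-/- mESCs or MEFs. The cell type labels were checked with marker genes. Of 7 mESC markers, 6 had a Pol II promoter peak in both mESC libraries, 1 in WT MEFs (Klf4) and 2 in Atxn7l3-/- MEFs (Klf4 and Tfcp2l1). All 6 fibroblast markers had one in both MEF libraries and none in mESCs. Their folds ranged from 10.47 to 43.3 in WT MEFs and from 5.38 to 23.9 in Atxn7l3-/- MEFs, and 5 of the 6, all but Pdgfra, were lower by at least 1.5 times in the latter. The primitive endoderm genes Gata6 (6.37 in WT and 22.2 in Atxn7l3-/- MEFs) and Gata4 (no peak and 4.06) went the other way, while Sox17 had no peak. The epithelial markers Cdh1 and Epcam had promoter peaks in both mESC libraries, Krt8 and Krt18 had none, and all 4 had none in MEFs. The endothelial gene Kdr had a peak in WT MEFs (2.61), Pecam1 in Atxn7l3-/- MEFs (4.31) and Cdh5 in no library, and both blood markers found (Ptprc and Hbb-bt) had none. What part these marker differences have in the values of the pathway genes was not tested.

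Pol II promoter peaks were found at 19 of the 51 members in WT mESCs, 24 in Atxn7l3-/- mESCs, 36 in WT MEFs and 33 in Atxn7l3-/- MEFs. Among all autosomal protein-coding genes the shares were 35.3%, 32.1%, 55.3% and 52.3%. The members were thus called more often in Atxn7l3-/- than in WT mESCs, where all genes were called less often. Peaks in all 4 libraries were found at 15 members: Smad1, Smad2, Smad3, Smad4, Smad5 and Smad7, the receptors Acvr2a, Acvr2b, Bmpr1a, Bmpr2, Tgfbr1 and Tgfbr3l, the ligands Gdf1 and Gdf9, and Tgfbrap1. This is 29.4% of the members beside 26.1% of all genes. No library had a promoter peak at 10 members (19.6%, beside 41.1% of all genes), which were the receptor gene Acvr1c and the ligand genes Bmp3, Bmp5, Bmp7, Bmp8b, Bmp10, Gdf2, Gdf5, Inhbc and Inhbe.

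**Figure D1:**
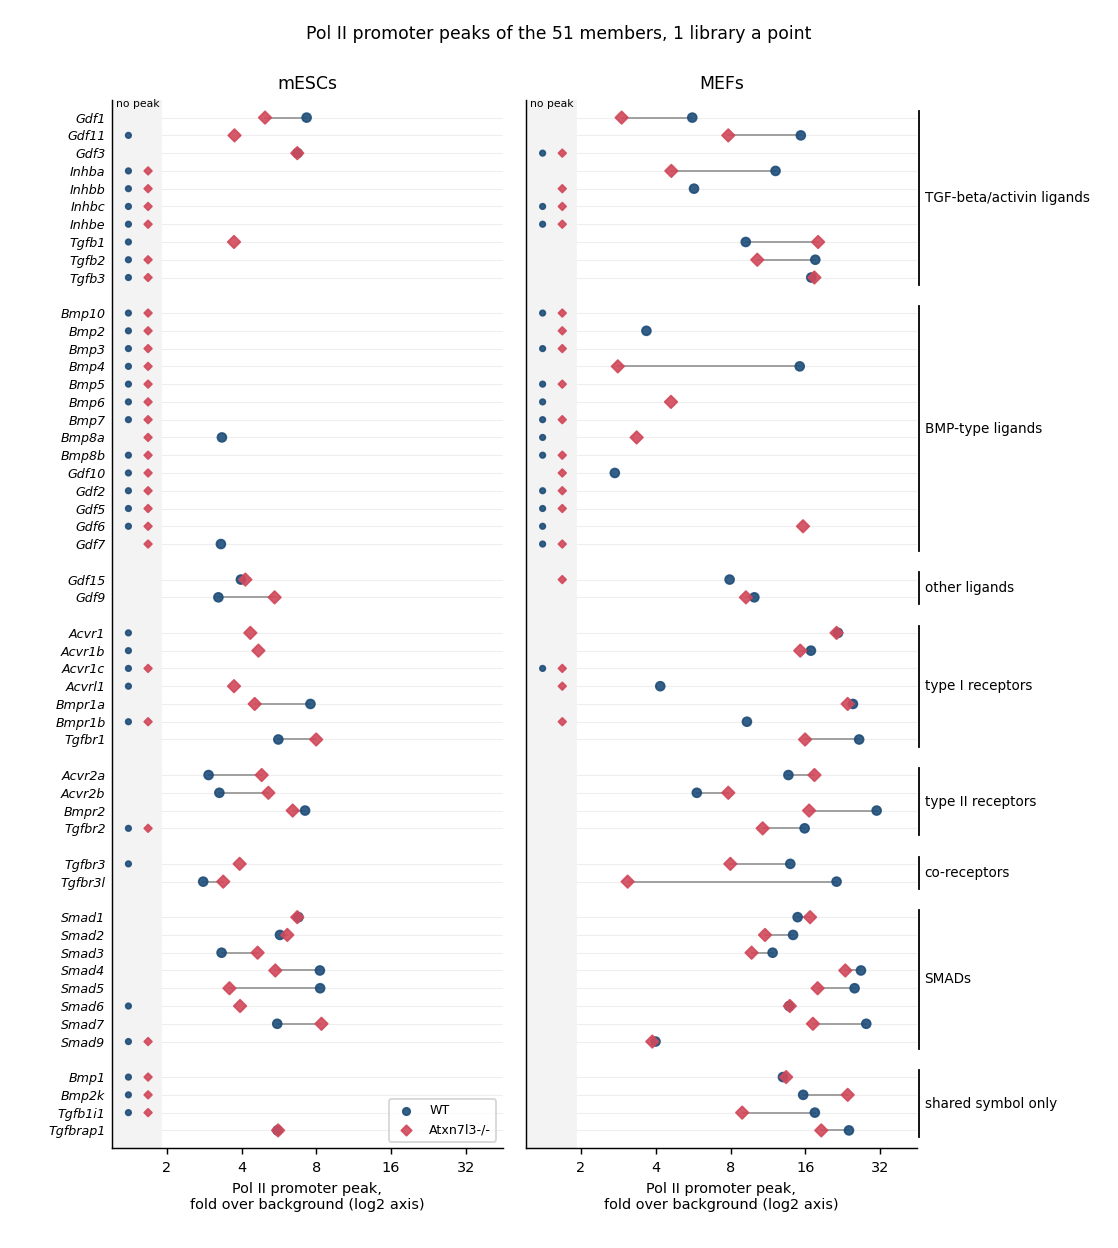
Highest fold of the Pol II peak at the promoter of each of the 51 members (rows, grouped by role) in mESCs and MEFs, on a log2 axis; circles are WT, diamonds Atxn7l3-/-, 1 library each, and small symbols in the grey strip mark the absence of a peak. The BMP-type ligands are mostly in the grey strip, and the 8 SMADs have peaks in both MEF libraries.

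In WT cells, 20 members had a promoter peak in MEFs and none in mESCs, against a share of 21.9% of all genes, and 3 members had one in mESCs only, against 1.9%. The 20 were the ligand genes Bmp2, Bmp4, Gdf10, Gdf11, Inhba, Inhbb, Tgfb1, Tgfb2 and Tgfb3, the receptor genes Acvr1, Acvr1b, Acvrl1, Bmpr1b, Tgfbr2 and Tgfbr3, Smad6 and Smad9, and Bmp1, Bmp2k and Tgfb1i1. Their WT MEF folds ran from 2.74 at Gdf10 to 21.7 at Acvr1. The 3 mESC genes were Gdf3, a Nodal-related ligand of pluripotent cells (6.72), Bmp8a (3.33) and Gdf7 (3.30). In Atxn7l3-/- cells, 12 members had a peak in MEFs only, against 21.9% of all genes, and 3 in mESCs only (Acvrl1, Gdf15 and Gdf3), against 1.61%. Each cell type has libraries of its own, so a difference between cell types cannot be told apart from one between their cultures and libraries.

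All 3 TGF-beta genes were occupied in MEFs. At Tgfb1, which encodes the best studied ligand of the family, the promoter fold was 9.21 in WT MEFs and 18.02 in Atxn7l3-/- MEFs, and in mESCs a peak was called in Atxn7l3-/- cells alone (3.73). The Atxn7l3-/- level was 1.96 times that of WT in MEFs, a higher ratio than at all but 154 of 10576 promoters occupied in both genotypes, and the neighbouring gene B9d2 lies 444 bp away. Tgfb2 went from 17.6 in WT to 10.3 in Atxn7l3-/- MEFs. Tgfb3 was at 16.9 and 17.4. By the limit of 1.5 times, Tgfb1 was called higher and Tgfb2 lower in Atxn7l3-/- MEFs. Both calls were lost when 50% of the peak had to lie inside the window, and that of Tgfb2 also relative to the median ratio of all promoters (0.68). At Tgfb1 this rule dropped the WT peak, which ran to 2725 bp past the start, and kept the Atxn7l3-/- peak. The Tgfb1 promoter was then occupied in Atxn7l3-/- MEFs alone.

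Inhba and Inhbb encode the beta subunits from which activins and inhibins are built. Inhba was occupied in MEFs only, with a fold of 12.1 in WT and 4.62 in Atxn7l3-/- cells. Its Atxn7l3-/- over WT ratio of 0.38 was undercut by 223 of the 10576 shared promoters, and the call was lost when 50% of the peak had to lie inside the window. Inhbb had a peak in WT MEFs (5.70) and none in Atxn7l3-/- MEFs, where the nearest peak was 43839 bp away. The related genes Inhbc and Inhbe, known from liver, had no Pol II promoter peak in any library. Gdf11, a close relative of myostatin, had a promoter peak in Atxn7l3-/- mESCs (3.75) and none in WT mESCs, where peaks of 4.20 and 4.30 lay further inside the gene, and its promoter was at 15.4 in WT against 7.83 in Atxn7l3-/- MEFs. Gdf3 was at 6.72 and 6.70 in WT and Atxn7l3-/- mESCs, with summits inside the gene more than 1000 bp from the start. Gdf1, which shares a transcript with Cers1 so that the signal cannot be given to either gene, was at 7.31 and 4.97 in mESCs and at 5.61 and 2.91 in MEFs. The summit of its WT MEF peak lay 1011 bp from the start, so that with the summit inside the window only Atxn7l3-/- MEFs had a peak and the call of a lower fold was lost.

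BMP-type ligands had the smallest share of genes with a promoter peak of the roles with more than 2 genes. Of 14 genes, 2 had a promoter peak in WT mESCs, 0 in Atxn7l3-/- mESCs, 3 in WT MEFs and 4 in Atxn7l3-/- MEFs. Gdf6, which patterns joints and the dorsal embryo, had no promoter peak, no body peak and no H2Bub1 peak in WT MEFs or in either mESC library, and a promoter peak of 15.7 in Atxn7l3-/- MEFs. The gene lies at chr4:9844372-9862345 on the + strand, its nearest coding neighbour (Asph) is 175028 bp away, and the nearest WT MEF peak was 73258 bp from the start. Among the 314 promoters with a peak in Atxn7l3-/- MEFs alone, only 10 had a higher fold, and their median was 4.27. Bmp6 (4.60) and Bmp8a (3.35) also had a promoter peak in Atxn7l3-/- MEFs alone. WT MEFs had peaks of 3.27 and 7.91 far inside Bmp6, the second above any Bmp6 peak in Atxn7l3-/- MEFs. Bmp6 overlaps the coding gene Txndc5, so signal inside the gene cannot be given to Bmp6 alone. A Pol II peak lay 3203 bp from the Bmp8a start in WT MEFs, and Bmp8a and Bmp8b are near-identical copies between which short reads may be split.

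Bmp4, a ligand of mesoderm and limb mesenchyme, overlaps the predicted gene Gm15217. In WT MEFs a peak of 7.28 lay at its start and a larger one of 15.2 overlapped the promoter window with its summit 3247 bp inside the gene, in an intron. In Atxn7l3-/- MEFs the corresponding peaks had folds of 2.81 and 7.69. Both peaks were thus lower, with ratios of 0.39 at the start and 0.51 inside the gene. The ratio of 0.19 by the rule of the highest fold sets the WT peak inside the gene against the Atxn7l3-/- peak at the start, and is no ratio of a single peak. No mESC library had a Bmp4 promoter peak. Bmp2, a close relative of Bmp4, and Gdf10 had weak peaks in WT MEFs (3.67 and 2.74) and none in Atxn7l3-/- MEFs. In mESCs, Bmp8a (3.33) and Gdf7 (3.30) had weak peaks in WT cells and none in Atxn7l3-/- cells. The folds of these 4 genes were low, below the medians of promoters occupied in WT alone, 4.39 in MEFs and 3.60 in mESCs, and the Gdf10 and Gdf7 calls were absent when equal numbers of peaks were kept per genotype.

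Of the other ligands, Gdf9, the oocyte growth factor, is only 192 bp from Uqcrq, so its values (3.22 and 5.43 in WT and Atxn7l3-/- mESCs, 9.98 and 9.23 in MEFs) cannot be given to it alone. Gdf15, a stress-induced cytokine, was at 3.97 and 4.14 in mESCs. In WT MEFs a peak of 7.93 reached into its promoter window with its summit 2482 bp inside the gene, and in Atxn7l3-/- MEFs the peak inside the gene (5.91) did not reach the window, so that its promoter was called in WT MEFs alone.

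Among the type I receptors, Tgfbr1, which carries the TGF-beta signal, was at 5.62 in WT and 7.99 in Atxn7l3-/- mESCs, and at 26.4 and 15.97 in MEFs. Bmpr1a, the most widely used BMP receptor, was at 7.58 and 4.52 in mESCs and at 24.9 and 23.7 in MEFs. The Atxn7l3-/- library was thus lower by at least 1.5 times at Tgfbr1 in MEFs and at Bmpr1a in mESCs. The genes of the BMP and activin receptors Acvr1 and Acvr1b had peaks in Atxn7l3-/- mESCs (4.34 and 4.67) and none in WT mESCs, and in MEFs they were at 21.7 and 21.4 and at 16.9 and 15.3. The start of Upp2 lies 141 bp from that of Acvr1. Acvrl1, the receptor known from endothelium, had a peak in Atxn7l3-/- but not WT mESCs (3.73), outside a window of 100 bp before to 300 bp after the start, and in WT but not Atxn7l3-/- MEFs (4.17). Bmpr1b had a peak of 9.31 at its most upstream start in WT MEFs and none in the other 3 libraries. This fold was exceeded by 97 of the 921 promoters occupied in WT MEFs alone. The nearest other coding start, that of Pdlim5, is 226271 bp from the Bmpr1b start, and Unc5c lies 2212 bp from the gene record. Acvr1c, an activin and Nodal receptor, had none.

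All 4 type II receptor genes were occupied in both MEF libraries. Bmpr2, the BMP type II receptor, had the highest fold of any member in any library, 31.0 in WT MEFs, and 16.6 in Atxn7l3-/- MEFs. In mESCs it was at 7.21 and 6.42. Tgfbr2, which binds TGF-beta, was at 15.9 and 10.8 in MEFs and had no peak in mESCs. The activin receptors Acvr2a and Acvr2b were higher in the Atxn7l3-/- library in both cell types. Acvr2a was at 2.94 and 4.82 in mESCs and at 13.7 and 17.4 in MEFs, and Acvr2b at 3.25 and 5.13 in mESCs and at 5.85 and 7.83 in MEFs. Of these 4 differences, those in mESCs reached 1.5 times. The co-receptor gene Tgfbr3, encoding betaglycan, had a peak in Atxn7l3-/- but not WT mESCs (3.93) and was at 13.9 and 7.99 in MEFs. Tgfbr3l was at 2.80 and 3.37 in mESCs and at 21.4 and 3.08 in MEFs, but the WT MEF value is that of a peak of 10973 bp with its summit 4918 bp away from the start and outside the gene, which in Atxn7l3-/- MEFs was called as separate peaks.

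All 8 SMAD genes were occupied at the promoter in both MEF libraries, 6 in WT mESCs and 7 in Atxn7l3-/- mESCs, and Smad9 had none in either mESC library. Smad5, a BMP receptor SMAD, was at 8.29 in WT and 3.57 in Atxn7l3-/- mESCs and at 25.3 and 17.9 in MEFs. Its mESC ratio of 0.43 was the lowest of the members in mESCs, and 44 of 5663 shared promoters were lower. Smad4, the common partner, was at 8.27 and 5.47 in mESCs and at 26.8 and 23.2 in MEFs. The other receptor SMAD genes stayed within 1.5 times: Smad1 was at 6.78 and 6.70 in mESCs and 14.9 and 16.7 in MEFs, Smad2 at 5.71 and 6.11 and at 14.3 and 11.0, and Smad3 at 3.32 and 4.64 and at 11.8 and 9.72. The inhibitory Smad6 had a peak in Atxn7l3-/- mESCs (3.94), none in WT mESCs, and 13.8 and 13.9 in MEFs. Smad7, the other inhibitory member, was at 5.57 and 8.39 in mESCs and at 28.2 and 17.2 in MEFs. It was called higher in the Atxn7l3-/- library in mESCs and lower in MEFs, but neither call remained when the ratio was taken relative to the median of all promoters (1.48 and 0.71). The summit of the WT mESC peak lay 1384 bp from the start, where a further coding transcript begins, and that of the Atxn7l3-/- peak 6 bp from it. The mESC ratio by the highest fold is therefore no ratio of a single peak. Past the promoter window the highest folds were 5.57 in WT and 5.81 in Atxn7l3-/- mESCs. With the summit inside the window the mESC folds were 4.18 and 8.39, a ratio of 2.00. Of the genes that are no ligand, receptor or SMAD, Bmp2k (15.7 and 23.7 in WT and Atxn7l3-/- MEFs) was higher and Tgfb1i1 (17.5 and 8.91) lower. Bmp1 (13.0 and 13.4) and Tgfbrap1 (23.99 and 18.6) stayed within 1.5 times.

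Counted together in mESCs, 2 of 19 members occupied in WT had no promoter peak in Atxn7l3-/- cells (Bmp8a and Gdf7), against 22.8% of all genes. Conversely, 7 of 32 not occupied in WT had a peak in Atxn7l3-/- cells (Acvr1, Acvr1b, Acvrl1, Gdf11, Smad6, Tgfb1 and Tgfbr3), against 7.49%. Their folds, from 3.73 to 4.67, lay around the median of 3.78 of all 1009 such promoters. Of 17 members occupied in both genotypes, 3 were lower by at least 1.5 times (Bmpr1a, Smad4 and Smad5), against 10.9%, and 4 higher (Acvr2a, Acvr2b, Gdf9 and Smad7), against 10.8%. In MEFs, 6 of 36 members had a peak in WT alone (Acvrl1, Bmp2, Bmpr1b, Gdf10, Gdf15 and Inhbb), against 8.01%, and 3 of 15 in Atxn7l3-/- cells alone (Bmp6, Bmp8a and Gdf6), against 3.37%. Of 30 occupied in both, 11 were lower (Bmp4, Bmpr2, Gdf1, Gdf11, Inhba, Smad7, Tgfb1i1, Tgfb2, Tgfbr1, Tgfbr3 and Tgfbr3l), against 23.9%, and 2 were higher (Bmp2k and Tgfb1), against 5.76%. The median log2 ratio of Atxn7l3-/- to WT fold was 0.059 over the members and 0.022 over all shared promoters in mESCs, and -0.33 and -0.22 in MEFs. When each MEF ratio was taken relative to the median of all promoters, 7 members remained lower, Smad7, Tgfb2, Tgfbr1 and Tgfbr3 did not, and Acvr2b (1.56) joined Bmp2k and Tgfb1 as higher. In mESCs the same step left 3 lower and 3 higher, without Smad7.

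**Figure D2:**
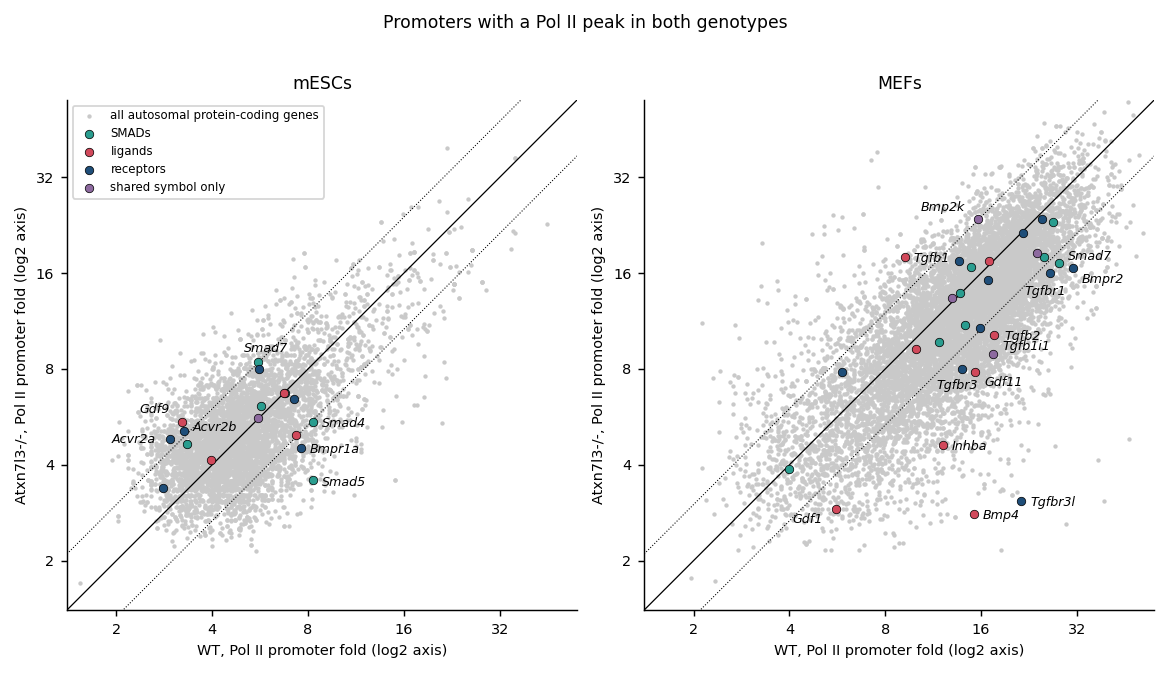
Pol II promoter fold in WT (x axis) against Atxn7l3-/- (y axis), both on log2 axes, for promoters with a peak in both libraries; grey points are all autosomal protein-coding genes, coloured points the members by class, the solid line marks equal folds and dotted lines a ratio of 1.5 either way. In MEFs, Bmp4 and Tgfbr3l lie far below the dotted line, in both cases with a WT fold from a peak whose summit is over 1000 bp from the start, and Tgfb1 lies above it, while in mESCs Smad5 lies lowest relative to the line.

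Pol II peaks inside the gene, past the promoter window, were called at 15 and 11 members in WT and Atxn7l3-/- mESCs and at 30 and 27 in MEFs, where 20.9%, 13.6%, 42.2% and 33.9% of all genes had them. In mESCs, 6 of 15 had them in WT alone (Acvr2b, Bmp1, Bmp8a, Gdf5, Gdf7 and Smad6), against 47.5% of all genes, and 2 of 36 in Atxn7l3-/- cells alone (Gdf9 and Tgfbrap1), against 3.3%. In MEFs, 5 of 30 had them in WT alone (Bmp8b, Gdf1, Inhbb, Smad4 and Tgfbr3), against 26.9%, and 2 of 21 in Atxn7l3-/- cells alone (Acvr1b and Gdf6), against 5.36%. The number of peaks within a gene varied more than this call. Tgfbr2 had 17 body peaks in WT and 3 in Atxn7l3-/- MEFs, Bmp1 15 and 4, and Inhba 8 and 1. Acvr2a, which overlaps the coding gene Orc4, had 15 and 1. All 4 had fewer body peaks in the Atxn7l3-/- list. Bmp2k (1 and 10), Smad7 (5 and 14) and Gdf6 (0 and 5) went the other way. The genes of these last counts were picked after their values were seen, and a long peak that is split in 1 library adds to such a count without a change in signal.

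H2Bub1 is laid down as Pol II transcribes through a gene, and its covered share is the percentage of gene length under H2Bub1 peaks. The share was higher in Atxn7l3-/- cells by at least 10 percentage points at 17 of 51 members in mESCs, against 32.7% of all genes, and at 29 of 51 in MEFs, against 46.2%. It was lower by as much at 2 in mESCs (Bmp4 and Inhbe), against 2.96%, and at 1 in MEFs (Inhbb), against 0.115%. Over the 30 members with H2Bub1 peaks in both mESC libraries, the median share was 15.2% in WT and 32.5% in Atxn7l3-/- cells, beside 16.5% and 38.2% over all genes with peaks in both. Over the 23 such members in MEFs, the medians were 19.1% and 68.0%, beside 14.9% and 64.1%. The share was higher in the Atxn7l3-/- library at 23 of these 30 members in mESCs, against 85.02% of all such genes, and at all 23 in MEFs, against 98.6%.

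**Figure D3:**
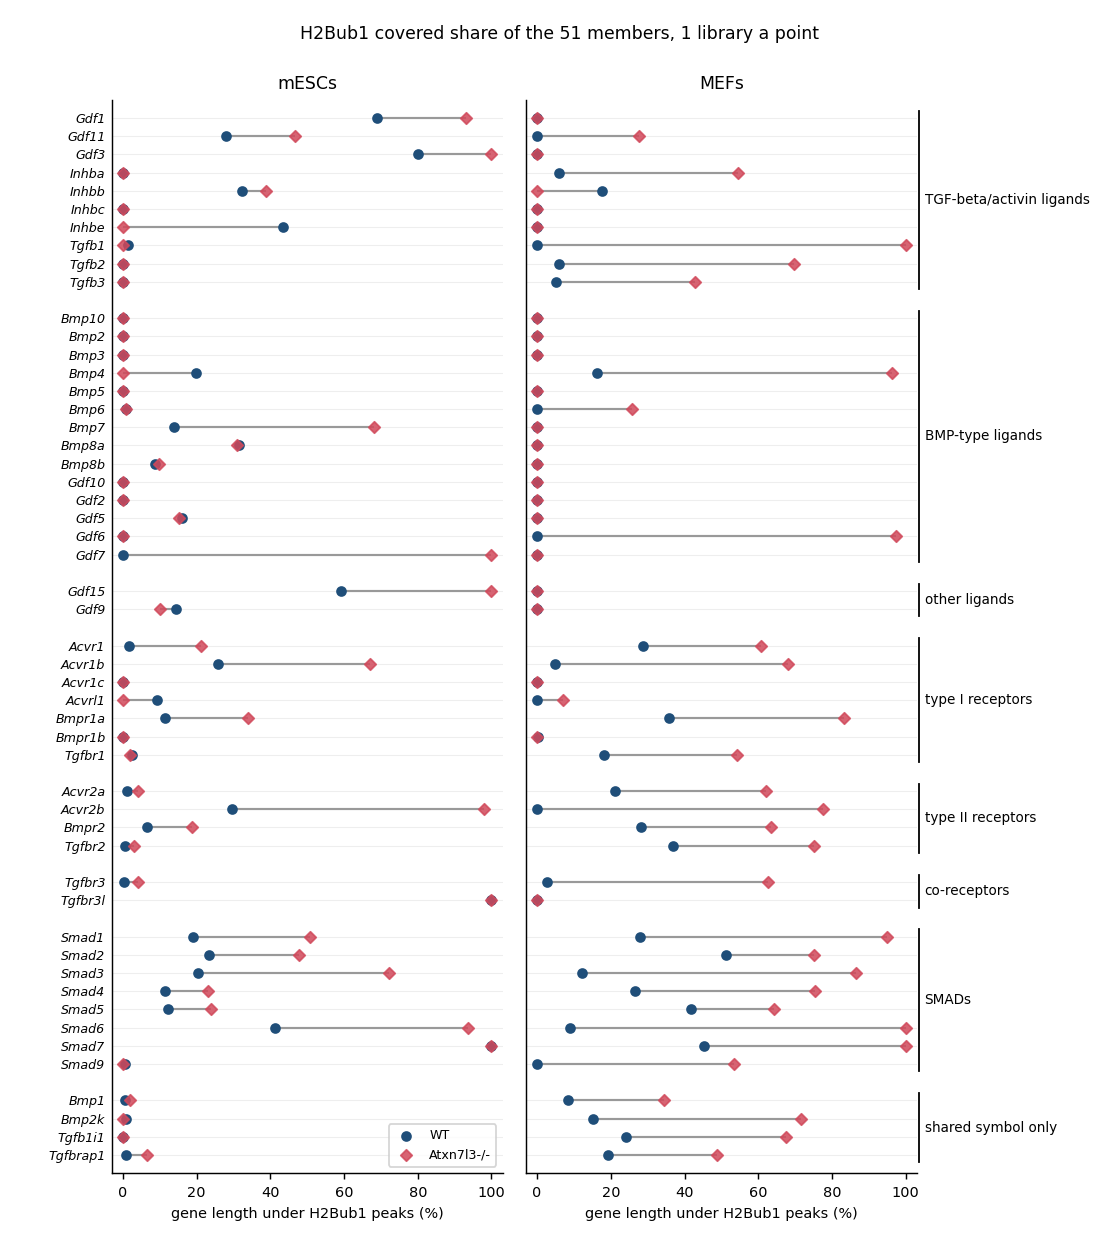
Percentage of gene length under H2Bub1 peaks for each of the 51 members (rows, grouped by role) in mESCs and MEFs; circles are WT and diamonds Atxn7l3-/-, 1 library each, joined by a line. In MEFs the SMADs move to between 53.3% and 100%, while most BMP-type ligands stay at 0% in both genotypes.

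By role, the SMADs had the highest shares in MEFs, with a median over all 8 of 27.2% in WT and 80.9% in Atxn7l3-/- cells. Smad9, with a weak Pol II promoter peak, went from 0% to 53.3%, and Smad6 from 8.97% to 99.99%. The type II receptors had medians of 24.6% and 69.2% and the type I receptors of 4.89% and 54.3%, whereas the median over the 14 BMP-type ligands was 0% in all 4 libraries. The 5 largest differences in MEFs were at Tgfb1 (0% to 100%), Gdf6 (0% to 97.3%), Smad6, Bmp4 (16.1% to 96.2%) and Acvr2b (0% to 77.5%). In mESCs they were at Gdf7 (0% to 99.95%), Acvr2b (29.7% to 97.9%), Bmp7 (14.0% to 68.0%), Smad6 (41.2% to 93.5%) and Smad3 (20.4% to 72.2%). Acvr2b and Smad6 were among the 5 in both cell types. Bmp4 went from 19.7% to 0% and Inhbe from 43.6% to 0% in mESCs, and Inhbb from 17.7% to 0% in MEFs. All 3 calls of a lower share were lost at the stricter limit of 3 for −log10 q.

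H2Bub1 and Pol II calls did not always go together. In WT MEFs, 25 of 36 members with a Pol II promoter peak had an H2Bub1 peak within the gene and 0 of 15 without one did (all genes 53.4% and 4.81%). In Atxn7l3-/- MEFs these counts were 29 of 33 and 1 of 18 (all genes 93.3% and 11.3%). In mESCs, 18 of 19 members with a Pol II promoter peak had one in WT and 22 of 24 in Atxn7l3-/- cells (all genes 91.9% and 97.8%). There H2Bub1 peaks also lay on members without a Pol II promoter peak, 18 of 32 in WT and 9 of 27 in Atxn7l3-/- cells (all genes 36.0% and 45.2%). Gdf7 was covered over its whole length in Atxn7l3-/- mESCs, where it had no Pol II peak, and uncovered in WT mESCs, where it had one. The Gdf7 H2Bub1 peak had a −log10 q under 3. In MEFs, Bmp2, Gdf10, Gdf15, Gdf9, Gdf1 and Tgfbr3l had Pol II promoter peaks in WT cells and no H2Bub1 peak within the gene in either genotype. At Gdf9 an H2Bub1 peak upstream of the gene reached into the promoter window in both (fold 3.33 in WT and 4.38 in Atxn7l3-/- MEFs).

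The Atxn7l3-/- MEF library showed wide H2Bub1 peaks both at genes with more and at genes with less Pol II. At Gdf6 and Tgfb1 a single H2Bub1 peak of 17916 and 19993 bp spanned the gene. The Pol II promoter fold was higher than in WT at Tgfb1, and Gdf6 had a promoter peak in Atxn7l3-/- MEFs and none in WT MEFs. At Bmp4 a peak of 7933 bp stood where WT had one of 1153 bp, and the Pol II folds were lower. At Inhba the H2Bub1 share went from 5.91% to 54.5% while the promoter fold went from 12.1 to 4.62 and the body peaks from 8 to 1. These 4 genes were picked after their values were seen, and Tgfb1 and Inhba lose their fold call with 50% of the peak inside. Over all 29 members with a higher H2Bub1 share in Atxn7l3-/- MEFs, the Pol II fold was lower at 9, higher at 2 and within 1.5 times at 16, and 2 had a promoter peak in Atxn7l3-/- cells alone. Among the 9616 genes with a higher share, 19.5% were lower, 5.47% higher and 65.6% within 1.5 times, and 1.64% had a peak in Atxn7l3-/- cells alone.

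**Figure D4:**
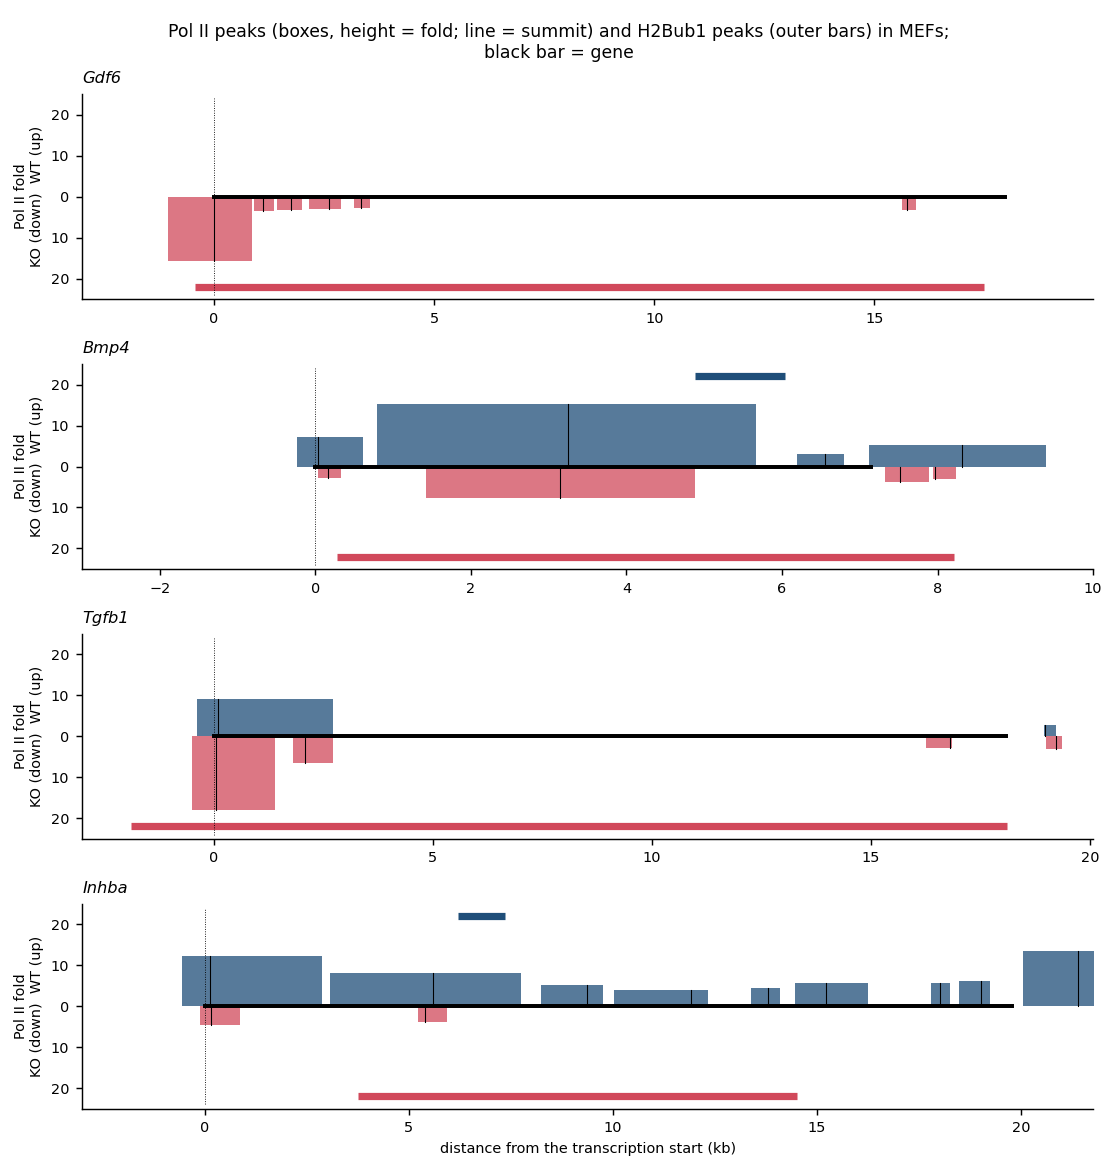
Pol II and H2Bub1 peaks at Gdf6, Bmp4, Tgfb1 and Inhba in MEFs by distance from the transcription start in kb; boxes are Pol II peaks with their fold as height, WT above and Atxn7l3-/- below the axis, black lines their summits, outer bars the H2Bub1 peaks and the black horizontal bar the gene. Pol II boxes are larger in Atxn7l3-/- cells at Gdf6 and Tgfb1 and smaller at Bmp4 and Inhba, and the H2Bub1 bar is longer in Atxn7l3-/- cells at all 4.

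Other pathway genes outside the symbol rule were counted from a textbook list, of which 51 were found. They comprised 34 extracellular or membrane regulators, 11 intracellular regulators and 6 targets. In mESCs, 5 of 23 had a promoter peak in WT alone, among them the Nodal antagonists Lefty2 and Dand5 and the BMP binders Nog and Twsg1, against 22.8% of all genes. In Atxn7l3-/- mESCs alone, 4 of 28 did (Bmper, Chrd, Eng and Inha), against 7.49%. Of 18 occupied in both, 1 was lower, the Nodal co-receptor gene Tdgf1 (7.37 and 2.81), against 10.9%, and 0 higher, against 10.8%. Nodal itself was at 5.73 and 6.68 in mESCs and had no promoter peak in MEFs, where 2 peaks lay inside the gene in each genotype. In MEFs, 6 of 37 had a peak in WT alone, among them Nog and Fstl3, which encode ligand antagonists, Ltbp4, which encodes a latency protein, the BMP co-receptor gene Rgma and the TGF-beta-induced matrix gene Tgfbi (9.55 in WT), against 8.01% of all genes. In Atxn7l3-/- MEFs alone, 0 of 14 did, against 3.37%. Of 31 occupied in both, 11 were lower, among them the antagonist genes Grem1 (9.96 and 2.56) and Fst (6.76 and 3.02), against 23.9%, and 3 were higher (Id2, Nedd4l and Nrros), against 5.76%. Of the Id target genes, Id2 alone passed 1.5 times in MEFs: Id1 was at 20.4 and 27.9, Id2 at 20.9 and 34.9 and Id3 at 33.2 and 35.6 in WT and Atxn7l3-/- MEFs, while Id4 was at 13.3 and 11.6. The H2Bub1 share was higher in Atxn7l3-/- cells at 19 of 51 of these genes in mESCs and at 28 of 51 in MEFs, against 32.7% and 46.2% of all genes, and lower at 5 and 0, against 2.96% and 0.115%. Among the intracellular regulators, such as the ubiquitin ligases Smurf1 and Smurf2 and the repressors Ski and Skil, 9 of 11 were higher in mESCs and 10 of 11 in MEFs. Among the extracellular or membrane regulators, 7 of 34 (20.6%) and 14 of 34 (41.2%) were, and among the targets 3 of 6 and 4 of 6, beside the same shares of all genes.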

How the data were processed

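ChIP-seq of Pol II (RPB1) and H2Bub1 was performed by the authors in WT and Atxn7l3-/- mESCs and MEFs, 1 library each. Of 16 labelled samples, 8 had a peak list and the other 8 (inputs and Ser2-phosphorylated Pol II) were not analysed here. Single-end reads were aligned by the authors to mm10 with Bowtie 1.0.0 and peaks were called per library with MACS2 2.1.1.20160309, per the labels after base calling with bcl2fastq 2.17.1.14. According to the methods, H2Bub1 was scaled by DESeq2 size factors over intergenic regions and Pol II by mapped reads, before peak calling, and how the scaling entered MACS2 is not stated. The deposited lists give a fold ratio over the background of the library, −log10 p and q values and a score that was not used; the Pol II lists also give the other value, the summit position. The read number given in the methods concerns density profiles, so the depth behind the peak lists is unknown and no intervals can be given. Nothing in the labels says that peaks of different libraries were called at matched depth, which could change the number of calls.

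Genes were taken from GENCODE M21 (GRCm38, the build mm10 names) and promoter sequences from RefSeq. Promoter peaks needed an overlap of 1 bp with 1000 bp either side of the start. A ratio of 1.5 or a difference of 10 percentage points was called. With 1 library a group, no test was made. Members named with values were those occupied in 1 genotype or, in WT, in 1 cell type, those past the ratio of 1.5, the 5 largest rises and all falls in H2Bub1 share. The others are given by role, some with their folds to complete a family, and these were chosen after their values were seen. The members and gene lists were chosen with earlier results of these data known. Alternatives were a stricter −log10 q (3 or more), the same number of peaks per genotype, isolated members, other windows and starts, other overlaps and thresholds, and joined H2Bub1 peaks. The summit rule and the division by the median ratio were added after seeing the data. The calls were tested on simulated peak lists. Python 3.11.15, numpy 2.4.6, pandas 2.3.3 and matplotlib 3.10.9 were used. The values of some genes on the lists are not reported here.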

Additional observations from a re-analysis of the deposited data

Results flagged for a closer look

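By calls of the same kind, the differences between WT and Atxn7l3-/- cells went opposite ways in mESCs and MEFs at 4 members, and with 1 library a group the difference between the cell types was not tested. The Acvrl1 promoter had a Pol II peak in Atxn7l3-/- mESCs alone (fold 3.73) and in WT MEFs alone (4.17). The Bmp8a promoter had one in WT mESCs alone (3.33) and in Atxn7l3-/- MEFs alone (3.35). At Smad7 the Atxn7l3-/- over WT ratio of promoter folds was 1.51 in mESCs and 0.61 in MEFs. Relative to the median ratio it was 1.48 and 0.71, so that neither call remained, and the MEF call was also lost with 50% of the peak inside. The mESC ratio of 1.51 sets a WT peak with its summit 1384 bp from the start against an Atxn7l3-/- peak at 6 bp. With the summit inside the window the mESC ratio was 2.00, and past the window the highest mESC folds were 5.57 and 5.81. The H2Bub1 share of Bmp4 differed by -19.7 percentage points in mESCs and by 80.1 in MEFs, and the mESC call was lost at a −log10 q of at least 3. By calls of different kinds, Gdf11 and Tgfbr3 had a promoter peak in Atxn7l3-/- mESCs alone (3.75 and 3.93) and a lower fold in Atxn7l3-/- MEFs (ratios of 0.51 and 0.57), of which that of Tgfbr3 was lost relative to the median ratio (0.67).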

How the results depend on the processing

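Member calls are given as those of the main analysis that remained under each alternative: 127 of 140 with a −log10 q of at least 3, 129 of 140 with equal numbers of peaks, 72 of 76 with a window of 100 bp before to 300 bp after the start, 75 of 76 with any coding start, 75 of 91 with 50% of the peak inside, 72 of 76 with the summit inside the window, 16 of 18 where the other genotype also lacked any peak within 5000 bp, 44 of 49 over the first 5000 bp and 49 of 49 with joined H2Bub1 peaks. Thresholds of 25 points and of a ratio of 2 left 36 of 49 and 4 of 20, and division by the median ratio 15 of 20. Counts that changed by over 1.5 times are listed below. No share of all genes under the same setting stands beside them, so they do not set the members apart. Keeping only the 26 members at least 5000 bp from other coding genes cannot change a gene's own call. That 74 of 74 calls remained was therefore fixed in advance, and the counts fell only because the set is smaller. Promoter peaks in WT alone and Atxn7l3-/- alone then numbered 1 and 4 in mESCs, and those in Atxn7l3-/- alone 1 in MEFs. Higher folds numbered 2 in mESCs and 0 in MEFs, and lower folds 6 in MEFs. Body peaks in WT alone numbered 3 in each cell type and in Atxn7l3-/- alone 0 in mESCs. A higher H2Bub1 share was called at 16 in MEFs and a lower one at 0 in mESCs. Peaks in MEFs alone numbered 9 in WT and 4 in Atxn7l3-/-, and in mESCs alone 1 in WT. With 50% of the peak inside, there were 8 promoter and 5 body peaks in Atxn7l3-/- MEFs alone, 6 lower and 1 higher MEF folds, and 5 peaks in mESCs alone in either genotype. Inhba, Tgfb1, Tgfb2, Tgfb1i1, Smad7 and Tgfbr3l lost their MEF fold calls there. The rule drops peaks that run far beyond the window, so a fold call lost there does not mean that the folds were alike. With the summit inside the window, 5 promoters had a peak in Atxn7l3-/- MEFs alone. A ratio of 2 left 1 lower and 0 higher folds in mESCs and 3 and 0 in MEFs, and the median-divided ratio 7 lower in MEFs. A difference of 25 points left 8 higher and 1 lower shares in mESCs and 0 lower in MEFs, and the first 5000 bp gave 4 lower in mESCs. With a −log10 q of at least 3 there were 1 and 0 lower, and the 1 in mESCs was Gdf1, not a call of the main analysis that remained. Equal numbers of peaks left 1 promoter and 2 body peaks in WT mESCs alone. With a −log10 q of at least 3 the H2Bub1 call of Gdf1 in mESCs turned from higher to lower (coded -1). The cause was not tested. No paired analysis was possible because the labels give no replicate numbers and each group has 1 library. Depth is unknown, and weak peaks near the calling threshold limit the calls of presence.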
